A study of Mus musculus with 23 samples.

Results

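The expression of 10 epithelial defence genes that respond to gut microbes was followed across the small intestine of busulfan-treated mice. They were Reg3a, Reg3b, Reg3g, Reg1, Saa1, Fut2, Duox2, Duoxa2, Nos2 and Lcn2, chosen by name and found through their NCBI Gene numbers, 10 of the 19215 entries of the expression table. All 10 had a mean of at least 1 FPKM (fragments per kilobase of transcript, scaled to the size of the library) and so were among the 11337 entries tested.

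Male ICR mice received busulfan (40 mg/kg, once), a chemotherapy drug that damages the gut lining. By mouth they then got either saline (Sa) or fecal microbiota transplantation (FMT). The transplanted material was pooled small intestinal content of donors dosed for 3 weeks with vehicle (Con-FMT), or with alginate oligosaccharides (AOS) at 10 mg/kg (A10-FMT) or 100 mg/kg (A100-FMT). RNA of 23 samples was sequenced in 2 sets given by the sample codes, with 3 libraries per group apart from Sa of set 1 with 2. Every group received busulfan, so no group shows the intestine without the drug, and what separates the sets is not explained. Recipients were 3 weeks old at busulfan and 5 weeks old at sampling, with 1 week of daily saline or FMT and then 1 more week of normal keeping, though the sources do not say to which set this applies. The group codes of the sample titles were read through the paper's group names, and the labels do not say that each library came from a separate mouse, so p-values measure the spread between these libraries.

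The REG genes encode small secreted lectins of enterocytes and Paneth cells, and Reg3g is known for keeping bacteria away from the villus surface. Microbes that touch the epithelium, and interleukin-22 and interleukin-17 from lymphocytes below it, switch on Reg3b, Reg3g, Saa1, Duox2 and Duoxa2 through STAT3 and related signals. DUOX2 with its maturation factor DUOXA2 makes hydrogen peroxide at the apical surface, NOS2 makes nitric oxide, LCN2 binds bacterial siderophores and so withholds iron, and FUT2 puts fucose on surface glycans that gut bacteria feed on.

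Reg3b and Reg3g are shown here because they were the most abundant transcripts of the table and moved together, and Reg3a because it is a close relative at a far lower level. The REG genes lie side by side on chromosome 6 over 98.0 kb (GRCm38.p6), and the 250 bases before each RefSeq start are given in the direction of transcription. Capitals mark TATAAA and TTCNNNGAA, the letters bound by TATA-binding protein and by STAT dimers, searched on both strands, and the matches did not overlap.
Reg3b (chr6:78370635-78370884, plus strand): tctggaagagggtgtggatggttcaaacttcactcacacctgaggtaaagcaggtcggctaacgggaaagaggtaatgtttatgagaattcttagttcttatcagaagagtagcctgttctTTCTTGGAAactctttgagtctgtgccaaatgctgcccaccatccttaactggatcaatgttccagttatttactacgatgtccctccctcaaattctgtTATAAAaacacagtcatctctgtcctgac
Reg3g (chr6:78468875-78469124, minus strand): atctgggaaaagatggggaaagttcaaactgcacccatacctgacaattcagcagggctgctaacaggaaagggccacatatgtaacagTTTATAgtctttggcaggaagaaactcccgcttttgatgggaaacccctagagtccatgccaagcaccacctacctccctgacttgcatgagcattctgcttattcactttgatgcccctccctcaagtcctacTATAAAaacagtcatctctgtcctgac
Reg3a (chr6:78380459-78380708, plus strand): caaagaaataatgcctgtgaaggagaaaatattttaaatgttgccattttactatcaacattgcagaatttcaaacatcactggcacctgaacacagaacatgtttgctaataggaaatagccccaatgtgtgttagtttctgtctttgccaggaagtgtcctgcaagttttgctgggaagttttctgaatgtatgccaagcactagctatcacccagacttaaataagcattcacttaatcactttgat
The Reg3b and Reg3g windows shared 177 of 250 bases (70.8%) in a global alignment, and the other pairs among Reg3b, Reg3g, Reg3a and Reg1 shared 59.2% to 61.6%. The windows are set by the annotated starts, and the identity of windows of unrelated genes was not measured. The Reg3a window ended in tcactttgat, letters that lie upstream of the nearest TATAAA in the Reg3g window. The stretch after these letters was therefore outside the Reg3a window, and was not searched or aligned. The lack of TATAAA in Reg3a and its identity with the other windows hold for this window only. TATAAA began 29 bases before the start of Reg3b and 27 before that of Reg3g, which also had its reverse complement at 161 bases. TTCNNNGAA was found once in Reg3b, 129 bases before the start. Of 27025 promoter windows of this length, 13.0% held TATAAA and 7.2% held TTCNNNGAA. Windows were given for 8 of the 10 genes. Besides Reg3b and Reg3g, TATAAA was found in Reg1 and Duoxa2, and TTCNNNGAA in none of the other 7. These matches describe letters and no binding was measured.

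One library needs a caution before the values. The Sa sample of set 1 titled replicate 3 has a description that names another column of the table. The values under the title's number were taken, and they stood apart from the rest, with correlations over the genes of 0.944 to 0.965 with the other libraries against 0.968 to 0.991 among those. The column of the description (0.973 to 0.989) is given as an alternative beside the calls against Sa of set 1. The sum of FPKM was 556466 to 667957 per library, and read depth is unknown.

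The tissue label held for the epithelium. Summed markers of absorptive enterocytes came to 6399 to 16512 FPKM per library, of Paneth cells to 6922 to 25378 and of goblet cells to 6804 to 11783. The 8 smooth muscle markers summed to 7.18 to 12.16 FPKM, of which Smtn (mean 7.66 FPKM) and Tagln (1.24 FPKM) made up nearly all, while Acta2 did not pass 0.09, Myh11 0.04 and Des 0.05. The 6 of 12 neutrophil markers with an entry summed to 0.08 to 0.53 FPKM, and S100a8, S100a9, Mpo and Elane were among the 6 not analysed here. The 17 pancreatic acinar genes summed to 1.76 to 8.43 FPKM and the 9 hepatocyte genes to 2.45 to 4.37. Il22 was listed at 0 in 22 of 23 libraries. Of the macrophage list, which summed to 46.2 to 75.1 FPKM, Cd14 made up nearly all and Csf1r, Adgre1 and Cx3cr1 did not pass 0.13.

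Reg3b and Reg3g led the whole table. Their mean levels ranked first and second of 19215 entries, 10097 FPKM for Reg3b and 8804 FPKM for Reg3g. Together they made up 2.19% to 4.47% of the summed FPKM of a library, with a median of 3.24%. FPKM is a level per length of transcript, so the genes can be set beside each other. Next came Reg1 with a mean of 242 FPKM (rank 379), Reg3a with 147 FPKM (rank 653), Duox2 with 81.1 FPKM (rank 1201) and Duoxa2 with 50.1 FPKM (rank 1920). The lowest means were 28.1 FPKM for Fut2, 21.5 FPKM for Saa1, 11.995 FPKM for Nos2 and 2.27 FPKM for Lcn2. In this order the ranges over the 23 libraries of neighbouring genes overlapped, apart from Reg3g and Reg1 and from Nos2 and Lcn2, which did not.

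**Figure D1:**
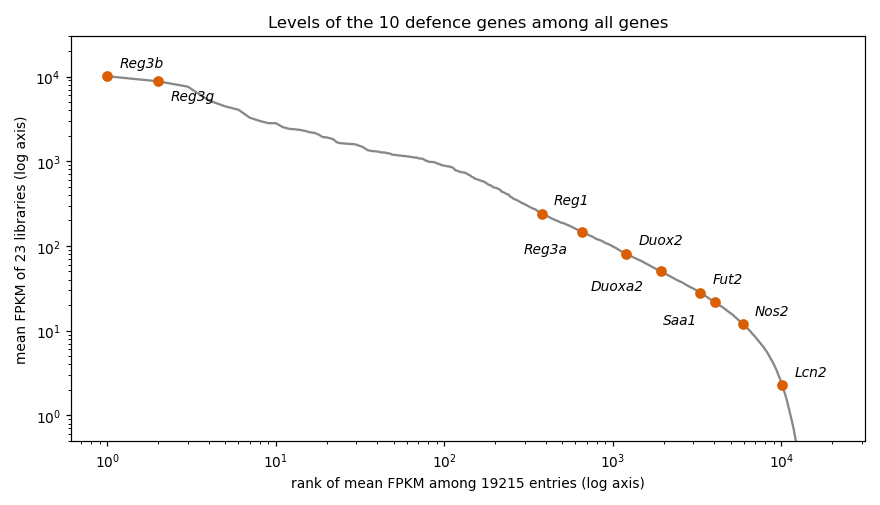
Mean FPKM over 23 libraries against the rank of that mean among 19215 entries, both on log axes. The grey line follows all entries and the points mark the 10 genes, from Reg3b at 10097 FPKM to Lcn2 at 2.27 FPKM.

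In single libraries of set 1, Reg3g stood at 9273 and 8987 FPKM in Sa, 7104, 10048 and 6876 in Con-FMT, 9401, 11172 and 9028 in A10-FMT and 7762, 10423 and 8527 in A100-FMT. In set 2 Reg3g stood at 9553, 7159 and 11126 FPKM in Sa, 11518, 11529 and 7559 in Con-FMT, 6345, 6611 and 8074 in A10-FMT and 6126, 10524 and 7757 in A100-FMT. Each FMT group of either set overlapped its Sa group. The highest library was 1.88 times the lowest for Reg3g and 2.23 times for Reg3b, which ranged from 6384 to 14265 FPKM. The ratio of Reg3b to Reg3g stayed between 0.923 and 1.29. Reg3g was 42.8 to 86.3 times as high as Reg3a, the third member of the family. How reads that match more than 1 REG transcript were counted is not given in the sources used here, and the identity of the transcripts was not measured.

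**Figure D2:**
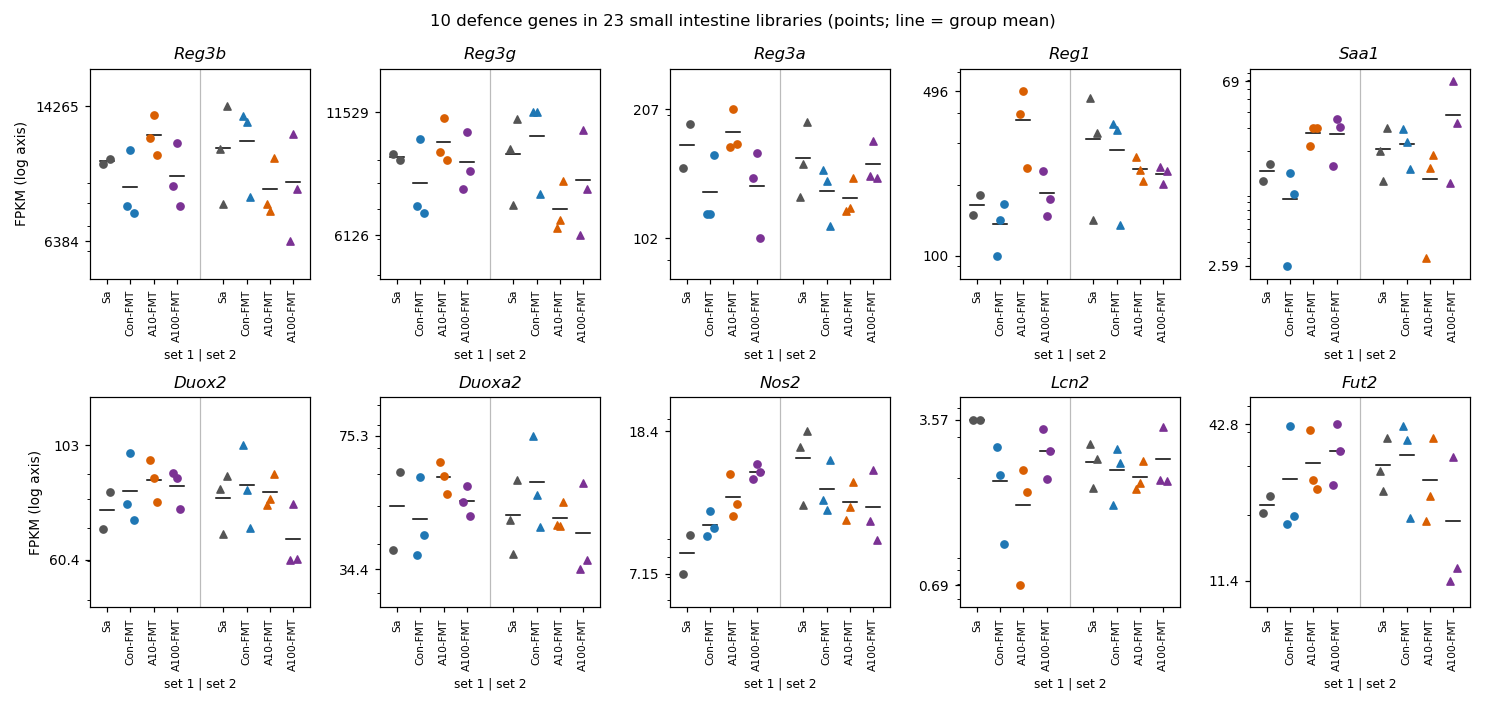
FPKM of each of the 10 genes in 23 libraries, on log axes whose labelled ticks are the lowest and highest library. Points are libraries (circles, set 1; triangles, set 2; one colour per treatment), lines are group means, and the libraries of most groups overlap those of Sa in the same set.

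The comparison of each FMT group with Sa asks whether the transplant moved these genes after busulfan. Each comparison with Sa in a set used the same Sa libraries. Averaged over both sets, the limma test called 0 of the 10 genes in Con-FMT vs. Sa (0.750% of all genes tested were called), 0 in A10-FMT vs. Sa (0.132%) and 0 in A100-FMT vs. Sa (0.891%). At an unadjusted p under 0.05 the limma test gave Reg3a and Lcn2 in Con-FMT vs. Sa, Lcn2 in A10-FMT vs. Sa and 0 genes in A100-FMT vs. Sa, beside 2659, 2260 and 2987 of all 11337 genes. The median log2 change of the 10 genes was -0.06, 0.03 and -0.09 in that order, beside 0.02, 0.01 and 0.04 over all genes tested. All changes are on the log2(FPKM + 1) scale, which understates the change of low genes such as Lcn2. In bulk tissue, fewer cells of a type and less RNA per cell cannot be told apart.

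For the most abundant pair every interval against Sa over both sets held 0. The log2 change of Reg3g over both sets was -0.04 (95% interval -0.37 to 0.30) in Con-FMT vs. Sa, -0.14 (-0.48 to 0.19) in A10-FMT vs. Sa and -0.12 (-0.46 to 0.21) in A100-FMT vs. Sa. Reg3b gave -0.09 (-0.48 to 0.30), -0.05 (-0.45 to 0.34) and -0.22 (-0.61 to 0.17). For Saa1 the intervals were wide, as in A100-FMT vs. Sa with 0.73 (-0.27 to 1.73).

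A10-FMT vs. Con-FMT and A100-FMT vs. Con-FMT ask whether material from AOS-dosed donors acted unlike that of vehicle-dosed donors. Over both sets 0 of the 10 genes passed in A10-FMT vs. Con-FMT (0% of all genes tested) and 0 in A100-FMT vs. Con-FMT (0.123%) by the limma test. Reg1 in A10-FMT (log2 change 0.65, 95% interval 0.07 to 1.22) and Saa1 in A100-FMT (1.08, 0.13 to 2.02) had an unadjusted p under 0.05, with adjusted p of 0.77 and 0.44 in limma. Over all genes the limma test gave 697 at an unadjusted p under 0.05 in A10-FMT vs. Con-FMT and 1097 in A100-FMT vs. Con-FMT.

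Within set 1 the calls were few. The limma test called 0 of the 10 genes in Con-FMT vs. Sa (26.9% of all genes), 1 in A10-FMT vs. Sa (32.0%), 1 in A100-FMT vs. Sa (35.2%), 1 in A10-FMT vs. Con-FMT (16.7%) and 0 in A100-FMT vs. Con-FMT (0.406%). At an unadjusted p under 0.05 the limma counts were 1, 3, 1, 3 and 2, beside 44.5%, 44.6%, 48.3%, 31.8% and 11.3% of all genes. Those backgrounds moved with the doubtful Sa library. With the column of the description, 0, 3, 1, 1 and 0 of the 10 genes were called in the same order, beside 0.397%, 33.8%, 8.51%, 32.8% and 1.89% of all genes. Without that library 0, 0, 0, 2 and 0 were called, beside 0.00881%, 8.12%, 0.238%, 32.8% and 1.55%. The share of the 10 genes called was below that of all genes in each of these comparisons with the title's column, and above it in A100-FMT vs. Sa with the column of the description.

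Nos2, the inducible nitric oxide synthase, was the gene called in A100-FMT vs. Sa of set 1. It stood at 7.15 and 9.24 FPKM in Sa of set 1, 9.17, 10.81 and 9.69 in Con-FMT, 13.88, 10.48 and 11.34 in A10-FMT and 13.44, 14.77 and 14.03 in A100-FMT. In set 2 it stood at 16.62, 11.27 and 18.41 FPKM in Sa, 11.66, 10.90 and 15.19 in Con-FMT, 10.24, 11.10 and 13.17 in A10-FMT and 10.16, 14.25 and 8.92 in A100-FMT. The A100-FMT libraries were all above Sa in set 1, and overlapped Sa in set 2. Every Sa library of set 2 was above both Sa libraries of set 1.

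The log2 change of Nos2 in A100-FMT vs. Sa of set 1 was 0.72 ± 0.19 (SE, limma adjusted p = 0.014). In A10-FMT it was 0.49 ± 0.19 (limma adjusted p = 0.062), and 0.70 with the column of the description, past the threshold (limma adjusted p = 0.0089). With the column of the description, where Nos2 was 6.63 FPKM, it was 0.93 in A100-FMT (limma adjusted p = 0.0069). The call was lost without Sa replicate 3 of set 1, with 0.89 (limma adjusted p = 0.11), and without Sa replicate 1, with 0.56 (limma adjusted p = 0.056). It was also lost when only the groups compared were fitted (limma adjusted p = 0.33) and with array quality weights (limma adjusted p = 0.75). In set 2 the change was -0.44 in A100-FMT vs. Sa and -0.37 in A10-FMT vs. Sa, with limma adjusted p of 0.27 and 0.34.

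Cell type markers moved in the same comparison, where 35.2% of all genes were called. In A100-FMT vs. Sa of set 1 the limma test called 6 of 11 Paneth cell markers lower and 0 higher, with sums of 9293 to 11652 FPKM against 20669 to 22045 in Sa. It called 5 of 11 enterocyte markers higher and 0 lower, with sums of 10338 to 12527 FPKM against 7592 to 9586. These counts were 6 and 3 with the column of the description, and without Sa replicate 3 of set 1 they were 0 and 0. The part of these shifts in the Nos2 result was not tested.

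Whether Nos2 changed unlike in the sets was tested with an interaction term. Set 2 minus set 1 gave -1.16 ± 0.26 (SE) in A100-FMT vs. Sa (limma adjusted p = 0.0098) and -0.86 ± 0.26 in A10-FMT vs. Sa (limma adjusted p = 0.021). Nos2 was the 1 gene of 10 called in each, where 26.8% and 28.4% of all genes were called. Without Sa replicate 3 of set 1 it was again 1 of 10 in each, beside 4.09% and 20.4% of all genes, and with the column of the description 1 and 3 of 10, beside 18.6% and 36.2%. The interaction of Nos2 missed the threshold when only the groups compared were fitted (limma adjusted p = 0.079 in A100-FMT and 0.063 in A10-FMT) and with array quality weights (0.49 and 0.62). In Con-FMT vs. Sa the interaction of Nos2 was -0.51 ± 0.26 and 0 of the 10 genes were called (0.00882% of all genes). At an unadjusted p under 0.05 limma gave 0 of the 10 there, beside 34.3% of all genes. Averaged over the 4 treatments, set 2 vs. set 1 called 0 of the 10 genes by limma (13.3% of all genes). It also gave 0 of the 10 at an unadjusted p under 0.05, beside 34.4% of all genes.

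Lcn2, the siderophore-binding lipocalin, was the gene called in A10-FMT vs. Sa of set 1, and it was lower. It stood at 3.55 and 3.57 FPKM in Sa of set 1, 2.72, 2.07 and 1.04 in Con-FMT, 0.69, 2.16 and 1.75 in A10-FMT and 3.27, 1.99 and 2.61 in A100-FMT. In set 2 it ranged from 1.82 to 2.80 FPKM in Sa, 1.53 to 2.67 in Con-FMT, 1.79 to 2.38 in A10-FMT and 1.95 to 3.34 in A100-FMT. Both Sa libraries of set 1 were above every FMT library of that set, while all groups of set 2 overlapped.

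The log2 change of Lcn2 in A10-FMT vs. Sa of set 1 was -0.90 ± 0.27 (SE, limma adjusted p = 0.018), and -0.93 with the column of the description (limma adjusted p = 0.013). Without Sa replicate 3 of set 1 it was -0.89 (limma adjusted p = 0.11) and without A10-FMT replicate 1, the lowest library at 0.69 FPKM, it was -0.63 (limma adjusted p = 0.085). The call was also lost when only the groups compared were fitted (limma adjusted p = 0.31) and with array quality weights (limma adjusted p = 0.76). In this comparison 9 of 11 enterocyte markers were higher and 0 lower by limma, beside 32.0% of all genes called. The marker sums were 13634 to 16512 FPKM against 7592 to 9586 in Sa. The count of higher markers was 8 with the column of the description and 6 without Sa replicate 3 of set 1. The part of this shift in the Lcn2 result was not tested.

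Reg1, a lectin of the same cluster known from regenerating tissue, was the gene called in A10-FMT vs. Con-FMT of set 1. It stood at 148 and 180.0 FPKM in Sa of set 1, 100.03, 142 and 165 in Con-FMT, 398, 496 and 235 in A10-FMT and 229, 148 and 174 in A100-FMT. In set 2 it stood at 466, 141 and 331 FPKM in Sa, 360.2, 342 and 135 in Con-FMT, 262, 230.4 and 207 in A10-FMT and 238, 200.5 and 228 in A100-FMT. All A10-FMT libraries of set 1 were above the Sa and Con-FMT libraries of that set, and in set 2 A10-FMT overlapped both. With the column of the description Reg1 was 259 FPKM in Sa replicate 3 of set 1, above A10-FMT replicate 3 at 235 FPKM.

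The log2 change of Reg1 in A10-FMT vs. Con-FMT of set 1 was 1.43 ± 0.39 (SE, limma adjusted p = 0.019), and in A10-FMT vs. Sa it was 1.13 ± 0.44 (limma adjusted p = 0.055). In A10-FMT vs. Sa, Reg1 passed with quantile normalization (limma adjusted p = 0.045) and with a filter at a mean of 5 FPKM (0.048). The change against Con-FMT was 1.20 to 1.36 with limma adjusted p of 0.054 to 0.088 when Con-FMT replicate 1, A10-FMT replicate 1 or A10-FMT replicate 2 of set 1 was left out. In A10-FMT vs. Con-FMT of set 1, 8 of 11 enterocyte markers were higher and 0 lower by limma, beside 16.7% of all genes called. The same A10-FMT libraries had the 3 highest enterocyte marker sums of all 23, 13634 to 16512 FPKM against 8763 to 10051 in Con-FMT of set 1. Their sums of distal small intestine markers were 1884 to 2159 FPKM against 1324 to 1489. Those of proximal small intestine markers were 1941 to 2638 FPKM against 1249 to 1371. The part of these shifts in the Reg1 result was not tested.

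In set 2 alone the limma test called 0 of the 10 genes in Con-FMT vs. Sa (0.0353% of all genes), A10-FMT vs. Sa (0.423%), A100-FMT vs. Sa (0.0353%), A10-FMT vs. Con-FMT (0.379%) and A100-FMT vs. Con-FMT (0%). At an unadjusted p under 0.05 limma gave 0, 1, 1, 1 and 2 of the 10 genes in that order, beside 651, 1627, 1606, 1348 and 1270 of all 11337. They were Nos2 in both comparisons of AOS groups with Sa, Reg3g in A10-FMT vs. Con-FMT, and Duox2 and Fut2 in A100-FMT vs. Con-FMT. Reg3g gave -0.52 (95% interval -0.97 to -0.08), Duox2 -0.35 (-0.66 to -0.04) and Fut2 -0.85 (-1.66 to -0.04).

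**Figure D3:**
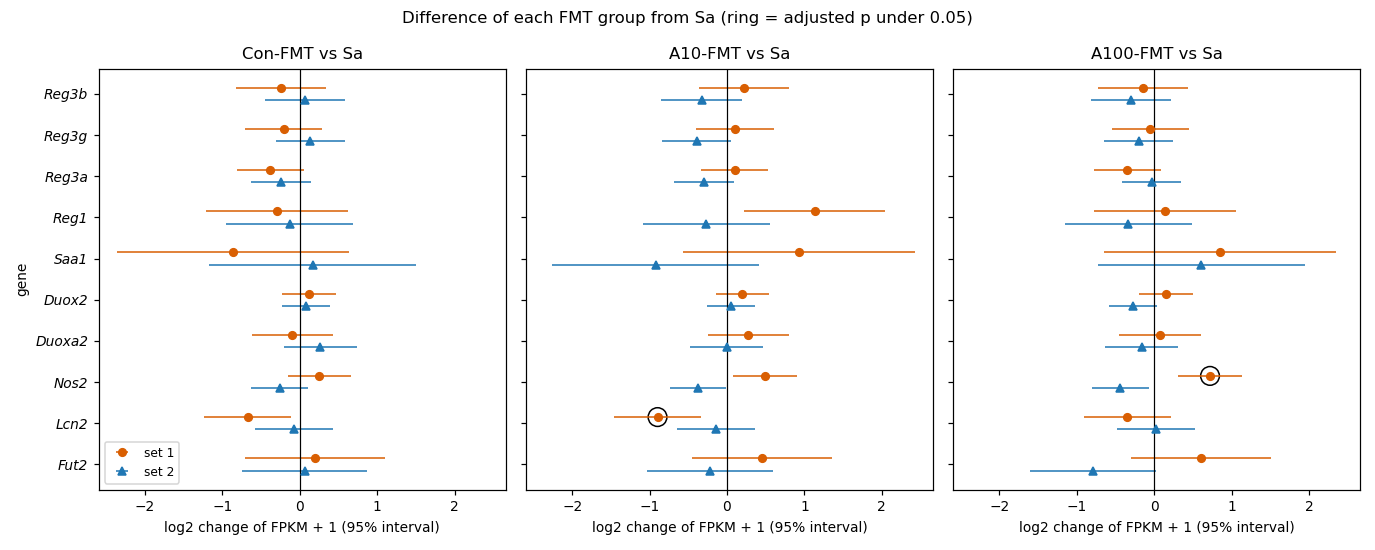
Log2 change of FPKM + 1 of each gene in each FMT group against Sa, with its 95% interval, for set 1 (circles) and set 2 (triangles). Rings mark Lcn2 in A10-FMT and Nos2 in A100-FMT of set 1, the only values past an adjusted p of 0.05, and the intervals are widest for Saa1.

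Saa1, an acute-phase protein that carries retinol and that segmented filamentous bacteria are known to raise in the ileum, varied most of the 10. It stood at 11.81 and 15.96 FPKM in Sa of set 1, 2.59, 13.51 and 9.24 in Con-FMT, 21.84, 30.12 and 30.02 in A10-FMT and 15.42, 35.17 and 30.49 in A100-FMT. In set 2 it stood at 19.90, 11.65 and 30.04 FPKM in Sa, 29.52, 23.37 and 14.60 in Con-FMT, 2.96, 14.73 and 18.48 in A10-FMT and 11.23, 69.05 and 32.99 in A100-FMT. All A10-FMT and A100-FMT libraries of set 1 were above Con-FMT of that set, while in set 2 the groups overlapped. The highest library was 26.7 times the lowest.

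The log2 change of Saa1 in A10-FMT vs. Con-FMT of set 1 was 1.79 ± 0.64 (SE, limma adjusted p = 0.061) and in A100-FMT vs. Con-FMT 1.71 ± 0.64 (limma adjusted p = 0.31). With the column of the description, where Saa1 was 2.50 FPKM, A10-FMT vs. Sa of set 1 gave 2.07 (limma adjusted p = 0.046) in place of 0.93 (limma adjusted p = 0.32). Saa1 was the highest of the serum amyloid genes listed, since Saa2 did not pass 0.30 FPKM and Saa3 did not pass 0.53 FPKM. How reads that match more than 1 of these genes were counted is not given in the sources used here. The hepatocyte gene Alb, from the organ that makes most SAA1, did not pass 0.30 FPKM.

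Duox2 and Duoxa2, the peroxide-forming oxidase and the factor that brings it to the surface, lie head to head on chromosome 2 (Duox2 at 122279246 to 122298740, Duoxa2 at 122298900 to 122302885, GRCm38.p6). Duox2 ranged from 60.40 to 103 FPKM and Duoxa2 from 34.4 to 75.3 FPKM over the 23 libraries. The ratio of Duox2 to Duoxa2 stayed between 1.36 and 2.09. Neither was called in any comparison. The spans of both genes did not overlap in the annotation.

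Fut2, which fucosylates the surface, ranged from 11.45 to 42.82 FPKM, and the lowest group mean was that of A100-FMT of set 2 at 18.9 ± 11.8 FPKM (SD, n = 3). In that group Fut2 was 11.45, 32.43 and 12.74 FPKM, against 28.89, 24.47 and 38.00 in Sa of set 2. Set 2 minus set 1 in A100-FMT vs. Sa gave -1.39 ± 0.58 (SE, limma adjusted p = 0.078). Reg3a ranged from 101.8 to 207 FPKM and was called in no comparison with the main settings. With the column of the description its interaction in A10-FMT vs. Sa passed, at -0.81 (limma adjusted p = 0.033). With the main settings that interaction was -0.40 (limma adjusted p = 0.28). In Con-FMT vs. Sa over both sets Reg3a gave -0.31, and -0.40 without Sa replicate 1 of set 1.

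Some of the genes varied together between libraries of the same group. A total of 8 pairs were correlated after the group mean of log2(FPKM + 1) was taken from each library, with libraries permuted within groups (two-sided, 100000 permutations) and p-values adjusted over the 8 pairs. Reg3b and Reg3g gave Pearson's r = 0.97 (permutation p = 8.0e-05, adjusted p = 0.00032) and Spearman's rho = 0.94 (permutation p = 0.00014). Duox2 and Duoxa2 gave r = 0.93 (permutation p = 2e-05, adjusted p = 0.00016) and rho = 0.91 (permutation p = 7.0e-05). Both relations held without the 2 libraries farthest from the median of the first gene, with r of 0.96 and 0.88. Within set 1 and set 2 alone, r was 0.92 and 0.99 for the REG pair and 0.86 and 0.97 for the DUOX pair.

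The fucosyltransferase and the serum amyloid also varied with Reg3g. Fut2 and Reg3g gave r = 0.86 (permutation p = 0.00048, adjusted p = 0.0013) and rho = 0.85 (permutation p = 0.00033), with r = 0.77 without the 2 farthest libraries. Saa1 and Reg3g gave r = 0.76 (permutation p = 0.0016, adjusted p = 0.0033) and rho = 0.74 (permutation p = 0.0028), with r = 0.77 without the 2 farthest. In set 1 and set 2 alone r was 0.75 and 0.92 for Fut2, and 0.63 and 0.82 for Saa1. These genes lie on different chromosomes from Reg3g.

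The remaining 4 pairs did not pass. Nos2 and Duox2 gave r = 0.50 (permutation p = 0.064, adjusted p = 0.10) and rho = 0.44 (permutation p = 0.10), Reg1 and Reg3b r = 0.44 (permutation p = 0.14, adjusted p = 0.16) and rho = 0.30 (permutation p = 0.24). Reg3a and Reg3g gave r = 0.43 (permutation p = 0.097, adjusted p = 0.13) and rho = 0.34 (permutation p = 0.20), Lcn2 and Reg3g r = 0.29 (permutation p = 0.28, adjusted p = 0.28) and rho = 0.24 (permutation p = 0.39). For Reg1 and Reg3b r was -0.13 without the 2 farthest libraries.

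**Figure D4:**
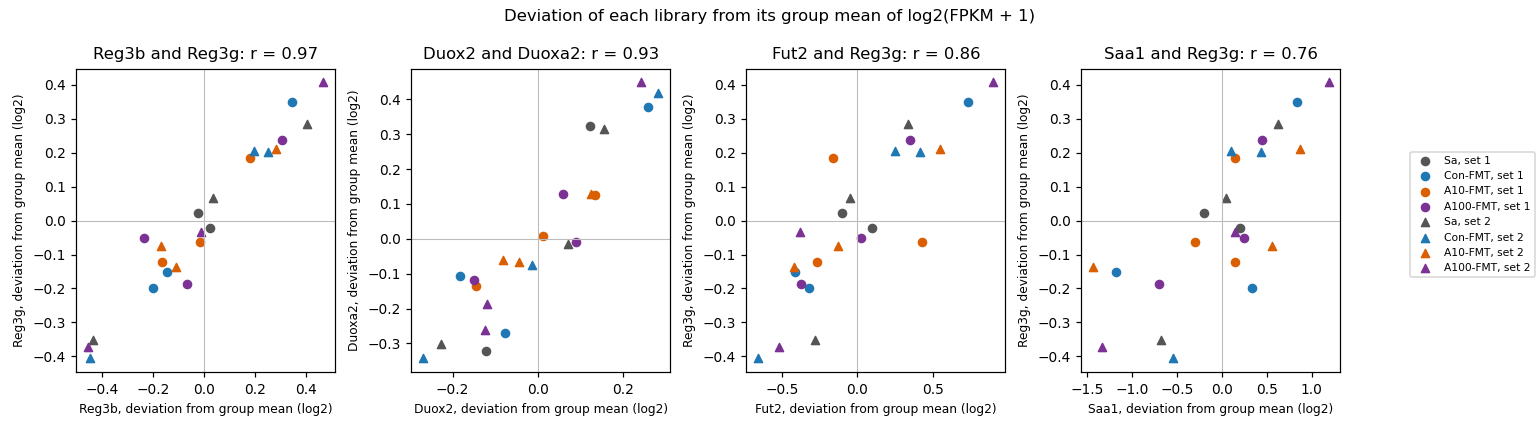
Deviation of each of 23 libraries from its group mean of log2(FPKM + 1), for 4 pairs of genes, with colours for treatments and circles for set 1, triangles for set 2. The points follow a rising line, with r of 0.97 for Reg3b and Reg3g, 0.93 for Duox2 and Duoxa2, 0.86 for Fut2 and Reg3g and 0.76 for Saa1 and Reg3g.

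Epithelial marker sums were set beside the genes in the same way. In 50 relations of the 10 genes with 5 sums of markers (absorptive enterocyte, goblet, Paneth, proximal and distal small intestine), chosen after seeing the data, 1 passed an adjusted p of 0.05, Reg3a with the distal sum (r = 0.68, permutation p = 0.00084, adjusted p = 0.042, rho = 0.66 with permutation p = 0.0015 and adjusted p = 0.075). Without the 2 farthest libraries its r was 0.60. With the distal sum, Duoxa2 gave r = 0.69, Fut2 0.68, Duox2 0.66, Reg3b 0.63, Saa1 0.61 and Reg3g 0.55, with adjusted permutation p of 0.10 to 0.35. The part of the position along the intestine in the pairs above was not tested.

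Of the other genes of these pathways, few moved against Sa once both sets were used. Over both sets, Nfkbiz, an inducible cofactor of NF-kB, rose in A100-FMT vs. Sa (log2 change 0.48 ± 0.084, SE, limma adjusted p = 0.028), the 1 of 11 tested genes of receptors and signalling to STAT3 (of 14 listed) to pass. Nfkbiz gave 0.32 (limma adjusted p = 0.058) with the column of the description, and without Sa replicate 3 of set 1 it gave 0.38 (limma adjusted p = 0.12). In that list the median change was -0.01, beside 0.04 over all genes. The most abundant of the list were Il17rc, a receptor chain for interleukin-17 (mean 100.4 FPKM), Il10rb, a chain of the interleukin-22 receptor (50.05 FPKM), and Stat3 itself (35.8 FPKM). Over both sets none of the 3 tested cytokine genes, 16 tested genes that sense microbes, 11 of other oxidases and peroxide handling, 8 of fucosylation, 6 of nitric oxide and arginine or 22 other epithelial genes raised by interleukin-22, interleukin-17 or microbes passed in an FMT group vs. Sa. Noxo1, an organizer of NADPH oxidase, passed with the column of the description in A100-FMT vs. Sa (0.20, limma adjusted p = 0.049), and so did Ido1, which breaks down tryptophan, in A10-FMT vs. Sa (0.66, limma adjusted p = 0.035). Within set 1, 4, 4 and 5 of the 11 signalling genes were higher in Con-FMT, A10-FMT and A100-FMT and 0 were lower, beside 26.9%, 32.0% and 35.2% of all genes called. In set 2 none passed. Those counts of set 1 with the column of the description were 0, 4 and 1, with 1 lower in A10-FMT, and without Sa replicate 3 they were 0, 0 and 1.

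Among cytokines the highest means were 51.7 FPKM for Il18, 3.84 FPKM for Il33 and 1.08 FPKM for Tnf. Among genes that sense microbes they were 59.2 FPKM for Cd14, a lipopolysaccharide co-receptor, 44.2 FPKM for Tifa and 25.8 FPKM for Ticam1, a Toll-like receptor adaptor. Among oxidase and peroxide genes they were 889 FPKM for Gpx2 and 465 FPKM for Gpx1, which reduce peroxides, and 187 FPKM for Rac1. Gmds (309.7 FPKM), Gfus (94.99 FPKM) and the transporter Slc35c1 (66.1 FPKM), which make and carry GDP-fucose, led the fucosylation genes. Arg2, a mitochondrial arginase (220.3 FPKM), Asl (21.5 FPKM) and the arginine transporter Slc7a1 (21.1 FPKM) led the nitric oxide and arginine genes.

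The most abundant of the 22 other epithelial genes were Lypd8 (mean 4455 FPKM), Zg16 (3001 FPKM) and Dmbt1 (1629 FPKM), which keep bacteria off the mucosa. In set 2, A10-FMT vs. Sa called 2 of these 22 genes higher, beside 0.423% of all genes called. They were Ang4 (log2 change 1.52, limma adjusted p = 0.029), a Paneth cell ribonuclease, and Itln1 (0.87, limma adjusted p = 0.048), a sugar-binding lectin. Both were lower in A100-FMT vs. Sa of set 1 (Ang4 -1.73, limma adjusted p = 0.0037, and Itln1 -1.35, limma adjusted p = 0.0021). Taking the column of the description, Ang4 gave -1.89 (limma adjusted p = 0.0032) and Itln1 -1.26 (limma adjusted p = 0.0032) there. Without Sa replicate 3 of set 1, Ang4 gave -1.89 and Itln1 -1.29, each with a limma adjusted p of 0.052. Both genes are also on the list of 11 Paneth cell markers, of which 3 were higher in A10-FMT vs. Sa of set 2 (sums of 12977 to 25378 FPKM against 6922 to 12935) and 6 lower in A100-FMT vs. Sa of set 1, as given above. The part of these shifts in the result of Ang4 and Itln1 was not tested. The 2 genes were named after their values were seen. Reg4, the 1 tested gene of the other REG lectins, was lower in A100-FMT vs. Sa of set 1 (-0.73, limma adjusted p = 0.016), but not with the column of the description (-0.62, limma adjusted p = 0.070) or without Sa replicate 3 (-0.78, limma adjusted p = 0.21).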

How the data were processed

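RNA of mouse small intestine was sequenced in 23 libraries. TRIzol extraction and HiSeq sequencing were used by the authors, and the build is mm10 per the labels. Deposited values are FPKM by the column names of the table, while the paper names RPKM. Aligner, annotation, strand and read depth are not given in the sources used here. NCBI Gene numbers were matched to symbols for 17725 of 17842. Values were analysed as log2(FPKM + 1) for entries with a mean of at least 1 FPKM (11337 of 19215) with limma 3.58.1 in R 4.3.3 (1 mean per group, contrasts, eBayes with trend) and Benjamini-Hochberg adjustment over all entries tested, threshold 0.05. Correlations used numpy 2.4.6 and scipy 1.17.1, and promoter windows came from RefSeq (GRCm38.p6), aligned with Biopython 1.88. The fits and correlations were tested on simulated data. All 10 genes are named, and from each pathway list the 3 most abundant genes and those called over both sets. Marker lists are given as sums, counts and defining genes. Ang4, Itln1, Noxo1 and Ido1 were added after their values were seen. The genes and lists were chosen with earlier results of these data known. Alternatives were a pseudocount of 0.1, no filter or a mean of at least 5 FPKM, quantile and trimmed-mean scaling, only the groups compared, a replicate block, array quality weights, the column of the description, and leaving out each library.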

Additional observations from a re-analysis of the deposited data

Results flagged for a closer look

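The change of Nos2 against Sa differed between the sets by the interaction test in limma, which called 28.4% (A10-FMT) and 26.8% (A100-FMT) of all genes. In A10-FMT vs. Sa, set 2 minus set 1 was -0.86 on the log2 scale (adjusted p = 0.021), from 0.49 in set 1 and -0.37 in set 2. In A100-FMT vs. Sa it was -1.16 (adjusted p = 0.0098), from 0.72 in set 1 and -0.44 in set 2. Both interactions share the Sa libraries of each set, where Nos2 was 7.15 and 9.24 FPKM in set 1 and 11.27 to 18.41 FPKM in set 2. With the column of the description they were -1.08 (adjusted p = 0.0035) and -1.37 (adjusted p = 0.0030). The interaction in A10-FMT missed the threshold without Sa replicate 1 of set 1 (-0.70), A10-FMT replicate 1 of set 1 (-0.76) or Sa replicate 3 of set 2 (-0.73), and that in A100-FMT kept it when any 1 library was left out. Both missed it when only the groups compared were fitted (adjusted p = 0.063 and 0.079) and with array quality weights (-0.75, adjusted p = 0.62, and -0.95, adjusted p = 0.49). Groups of 2 or 3 libraries were not tested for outlying libraries.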

How the results depend on the processing

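No change of a gene called with the main settings turned its direction. With a mean of at least 5 FPKM, Lcn2 (mean 2.27 FPKM) was not tested. Reg1 was then called in A10-FMT vs. Sa of set 1 (limma adjusted p = 0.048) in place of Lcn2, and that count did not change. The counts of called genes changed as follows. With quantile normalization 1 was called in Con-FMT vs. Sa of set 1, 2 in A10-FMT vs. Sa, 2 in A100-FMT vs. Sa and 2 in the A10-FMT interaction. Reg3g was among those of A100-FMT vs. Sa, with 0.44 (limma adjusted p = 0.042) against -0.05 with the main settings. It was also among those of the A10-FMT interaction, with -0.62 (limma adjusted p = 0.035) against -0.50. With only the groups compared, 0 were called in A10-FMT vs. Sa and A100-FMT vs. Sa of set 1 and in both of their interactions, and 2 in A10-FMT vs. Con-FMT of set 1, and with array quality weights 0 in those 4. With the column of the description, 3 were called in A10-FMT vs. Sa of set 1 (Saa1, Nos2 and Lcn2) and 3 in its interaction (Reg3a, Saa1 and Nos2). The deviations of same-numbered libraries had correlations of -0.352 to 0.319, with 10 of 33 pairs over 0.1. Libraries with different numbers were not compared, so these values cannot decide whether the numbers pair libraries. With the replicate block, 2 genes (Reg1 and Saa1) in place of 1 were called in A10-FMT vs. Con-FMT of set 1, and no other count moved.

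Leaving out 1 library at a time gave 0 to 1 called in Con-FMT vs. Sa of set 1, 0 to 3 in A10-FMT vs. Sa, 0 to 1 in A100-FMT vs. Sa, 0 to 2 in A10-FMT vs. Con-FMT, 0 to 1 in Con-FMT vs. Sa over both sets, and 0 to 2 and 1 to 2 in the A10-FMT and A100-FMT interactions. The other counts stayed at 0. The correlation of Reg3b and Reg3g was 0.42 with quantile normalization, that of Fut2 and Reg3g 0.37 and that of Saa1 and Reg3g 0.26, none past the threshold. Reg3b and Reg3g had the highest means of all entries, and why quantile normalization lowered these correlations was not tested. Leaving out 1 library gave 0.32 to 0.58 for Reg3a and Reg3g and 0.38 to 0.80 for Nos2 and Duox2, each passing in 2 of 23 cases (without Con-FMT replicate 2 or 3 of set 1, and without Con-FMT replicate 1 or 3 of set 2). The unknown depth limits Lcn2 most, as the lowest gene.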
